A study of Mus musculus with 8 samples.

Results

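In SCA17 knock-in (KI) mice, 11 genes induced by type I interferon rose against wild-type (WT) mice in both tissues profiled. The tissues were cerebellum and tibialis anterior (TA) muscle. Another 8 passed the test in muscle and another 3 in cerebellum. By the same rule, 2.66% of all tested genes rose in muscle and 0.147% in cerebellum. Of the 11, Eif2ak2, Ifit1 and Rtp4 were high enough to test in cerebellum only through their KI arrays. The same held in muscle for Ifit2, one of the 8. A test of the difference between the tissues called 0 of 41 genes of the set, against 0.143% of all tested genes. At so low a share, a count of 0 does not show that the shifts were alike. The genes that rose belong to a set of 45 such genes, chosen with earlier results of these data known. The set holds effectors, sensors and regulators of the response, named by symbol, without the interferon-inducible GTPases and the antigen presentation genes. Of these, 43 had a probe set that carried their symbol alone, out of 19938 genes on the array with such a probe set. Isg15, a ubiquitin-like modifier, was represented by a probe set shared with other symbols and was left out, and Ifi44 had none. Each gene is given by its brightest probe set, chosen by the mean over all 8 arrays.

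Spinocerebellar ataxia 17 is caused by an expanded glutamine repeat in TBP, the TATA-box binding protein. RNA came from mice aged 3 months, and the 4 groups were KI cerebellum, WT cerebellum, KI muscle and WT muscle, with 2 Affymetrix Mouse Gene 1.0 ST arrays in each. The arrays carry the numbers 94 and 97 in both KI groups and 95 and 96 in both WT groups. The series text speaks of 3 mice of each genotype, which is more than the 2 arrays in a group. The sources used here do not give the repeat length, zygosity, strain or sex of the mice, or whether an array holds 1 mouse or a pool, so p-values measure the spread between these arrays, which may be technical. Values are deposited log2 intensities, and a difference of 1 is a doubling. Array medians lay between 5.40 and 5.51, replicate arrays correlated at 0.977 to 0.989 over genes, and every value below is limited in precision by how few arrays there were. The cerebellar markers (Pcp2, Calb1, Gabra6 and others) and the muscle markers (Acta1, Ckm, Myh4 and others) followed the labelled tissue: the mean over the 8 cerebellar markers was 10.79 to 10.90 in WT cerebellum against 4.97 to 5.11 in WT muscle, and that over the 8 muscle markers was 11.96 to 12.06 in WT muscle against 5.87 to 6.05 in WT cerebellum. Of the muscle markers, Pvalb, which cerebellar interneurons and Purkinje cells also express, read 9.51 to 10.30 in cerebellum. Of the cerebellar markers, Snap25, a gene of nerve terminals, read 7.28 on KI muscle array 94. It read 5.57 on KI muscle array 97, and 5.60 and 6.32 in WT muscle. Tbp itself read 7.68 and 7.52 in KI cerebellum against 7.85 and 7.71 in WT cerebellum, and 6.80 and 6.94 in KI muscle against 6.70 and 6.81 in WT muscle. Neither Tbp difference passed the test (log2 -0.18 ± 0.12 (SE), adjusted p = 0.998 in cerebellum; 0.11 ± 0.12, adjusted p = 0.634 in muscle). This probe set does not tell the KI allele from the normal allele, so it does not check the labels.

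Type I interferons are released by cells that sense foreign or misplaced nucleic acid and act on their neighbours through the receptor pair Ifnar1 and Ifnar2. The receptor kinases Jak1 and Tyk2 then activate STAT proteins, among them Stat2, which joins Irf9 in the complex ISGF3. ISGF3 binds the interferon-stimulated response element (ISRE) in promoters and turns on genes whose products detect viral RNA, block viral entry and translation, and feed back on the pathway. Interferon gamma acts mainly through a different element, the gamma-activated sequence (GAS). In brain and muscle alike, both resident parenchymal cells and macrophages are able to express these genes.

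The promoters of the genes were searched for both elements, since ISRE letters are what most of these genes are known to share. The windows come from RefSeq on build GRCm38.p6 and run from 250 bases before to 50 bases after an annotated start. They exist for 37 of the 45 genes, and Dhx58, Zbp1, Oas2, Usp18, Parp9, Parp14, Ifi27 and Rtp4 had no entry. The ISRE was searched as GAAA, any 2 bases and GAAA, and the GAS as TTC, any 3 bases and GAA, on both strands. An ISRE match lay in at least 1 window of 16 of the 37 genes (43.2%), against 1079 of all 27025 genes with a window (3.99%). A GAS match lay in 8 of the 37 (21.6%) against 2582 of the 27025 (9.55%). A gene can have several windows; by window the ISRE shares were 17 of 44 (38.6%) and 1131 of 32851 (3.44%). In Bst2 and Ifitm3 an ISRE match and a GAS match overlapped.

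The windows of 5 genes, chosen after their values were seen, are shown because they set strong and weak responders beside the presence and absence of the letters. Capitals mark ISRE matches, sequences run 5′ to 3′ on the gene's strand, and positions count from the annotated start as 1, with the base before it as -1. Ifit1 (plus strand, chr19:34640639-34640938) has matches that begin at -104 and -85, and Ifit3, on the same chromosome (plus strand, chr19:34583279-34583578), at -156 and -122. In both genes the matches read TTTCACTTTC and then TTTCAGTTTC, which are ISRE letters on the opposite strand. Ifitm3 (minus strand, chr7:141010695-141010994) has matches just after its start, at 3 and 20. Oas1a (minus strand, chr5:120907476-120907775) has a pair of overlapping matches that begin at -20 and -14, and Oasl2 (plus strand, chr5:114896684-114896983) has none in this window.
Ifit1: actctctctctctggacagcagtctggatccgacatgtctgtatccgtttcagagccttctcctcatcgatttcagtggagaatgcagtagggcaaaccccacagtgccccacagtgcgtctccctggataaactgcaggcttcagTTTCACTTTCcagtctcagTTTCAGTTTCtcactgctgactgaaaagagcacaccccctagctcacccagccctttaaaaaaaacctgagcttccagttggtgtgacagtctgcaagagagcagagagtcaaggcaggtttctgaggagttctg
Ifit3: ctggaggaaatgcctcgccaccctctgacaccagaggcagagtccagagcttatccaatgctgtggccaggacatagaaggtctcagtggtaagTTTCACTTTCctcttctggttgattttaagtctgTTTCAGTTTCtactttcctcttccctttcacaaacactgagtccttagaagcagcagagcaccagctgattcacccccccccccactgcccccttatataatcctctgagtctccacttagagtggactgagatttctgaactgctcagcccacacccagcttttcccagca
Ifitm3: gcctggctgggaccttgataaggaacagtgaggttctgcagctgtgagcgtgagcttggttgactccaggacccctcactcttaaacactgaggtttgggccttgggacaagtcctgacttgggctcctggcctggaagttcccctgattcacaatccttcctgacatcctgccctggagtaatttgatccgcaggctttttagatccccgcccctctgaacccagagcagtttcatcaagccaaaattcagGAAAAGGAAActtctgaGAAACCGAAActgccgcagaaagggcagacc
Oas1a: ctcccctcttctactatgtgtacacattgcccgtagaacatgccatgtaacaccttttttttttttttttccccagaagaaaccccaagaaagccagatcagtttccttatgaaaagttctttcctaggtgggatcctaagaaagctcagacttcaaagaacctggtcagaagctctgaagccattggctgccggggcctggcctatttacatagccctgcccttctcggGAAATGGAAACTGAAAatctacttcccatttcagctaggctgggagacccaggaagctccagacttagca
Oasl2: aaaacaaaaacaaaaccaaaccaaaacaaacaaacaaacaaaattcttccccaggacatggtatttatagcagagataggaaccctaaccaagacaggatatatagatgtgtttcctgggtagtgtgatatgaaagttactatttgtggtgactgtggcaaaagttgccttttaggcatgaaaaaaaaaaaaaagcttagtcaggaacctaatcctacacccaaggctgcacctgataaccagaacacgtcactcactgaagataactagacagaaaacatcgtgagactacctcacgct

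The letters and the size of the response did not line up in a simple way. Oasl2 rose in both tissues with no match in its window, while Oas1a, with 2 matches, read 0.21 higher on the log2 scale in KI muscle and 0.10 higher in KI cerebellum, neither past the test. The median log2 difference was 0.66 in muscle and 0.75 in cerebellum over the 15 measured genes with a match. Over the 20 with a window and no match it was 0.57 and 0.55. The ranges covered each other, from 0.01 to 1.56 with a match and from -0.19 to 1.27 without in muscle, and from -0.06 to 2.49 with a match and from 0.06 to 2.29 without in cerebellum. A match describes the letters of this window and shows neither binding nor its absence.

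In KI muscle, 19 of the 41 genes that could be tested rose and none fell. The 22 others did not pass, and 13 of those had an unadjusted p under 0.05. Over all 13933 genes tested in muscle, 2822 had an unadjusted p under 0.05. The test was limma's moderated test with Benjamini-Hochberg adjustment over the 13933 genes kept in muscle, called at an adjusted p under 0.05. By that rule 2.66% of all tested genes were called higher and 0.890% lower, 3.55% in all. The rises ranged from 1.44-fold to 2.95-fold. Among the 43 measured genes, 41 had a positive difference, 7 were at least 2-fold higher and the median log2 difference was 0.60 (interquartile range 0.38 to 0.85), where the median of all 19938 genes was -0.01 and 0.306% of them reached 2-fold. The KI arrays were both higher than either WT array for 38 of the 43 genes, as they were for 24.2% of all genes, and no gene of the set had both lower (21.7% of all genes).

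In KI cerebellum, 14 of 37 tested genes rose and none fell, among 13641 genes kept in that tissue of which 0.147% were called higher and 0.0586% lower, 0.205% in all. Of the 37, 11 were kept through their KI arrays alone, and 3 of the 14 calls are among these. The rises ranged from 1.74-fold to 5.60-fold. A positive difference was seen for 42 of the 43 genes, 11 of them at least 2-fold higher, and the median log2 difference was again 0.60 (interquartile range 0.33 to 1.02) against 0.01 over all genes, of which 0.0853% reached 2-fold. The equal medians are those of different genes, Cmpk2 in muscle and Parp12 in cerebellum. The 23 genes that were tested and not called included 15 with an unadjusted p under 0.05, which 727 of all 13641 tested genes had. Both KI arrays exceeded both WT arrays for 38 of 43 genes, against 17.8% of all genes, and none had both lower (16.0% of all genes). Only 20 genes on the array were called higher in cerebellum, and 14 of them (70.0%) were members of this set. The set was chosen with earlier results of these data known, so this share is a description and not a test.

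Many of these genes sat near background in WT tissue, above all in cerebellum, which bears on which were tested and how large a fold can be read. Testing in a tissue needed 2 or more of its 4 arrays to reach the 40th percentile of that array. In cerebellum 17 of the 43 genes reached that level on no WT array, and 11 of the 37 tested genes passed through the KI arrays alone: Ifih1, Eif2ak2, Oas2, Ifit1, Herc6, Parp9, Parp14, Rsad2, Ifi35, Rtp4 and Sp100, of which Eif2ak2, Ifit1 and Rtp4 were called. Dhx58, Oas3, Ifit2, Trim25, Samd9l and Epsti1 were not tested there. In muscle Ifit2 alone passed through the KI arrays, it was called, and Dhx58 and Epsti1 were not tested. A fold against a WT level near background depends on that background.

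**Figure D1:**
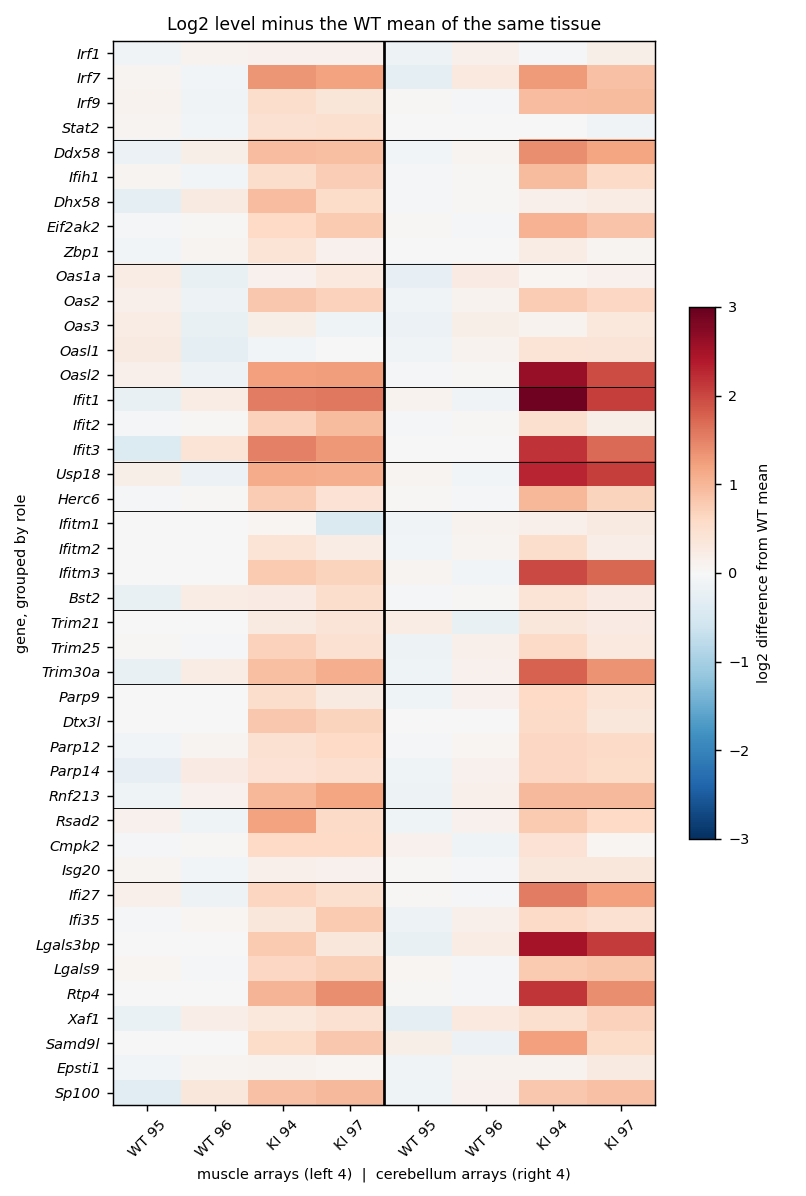
Heat map of the 43 measured genes (rows, grouped by role) on the 8 arrays (columns, 4 of muscle then 4 of cerebellum). Colour is the log2 level minus the WT mean of the same tissue; the KI columns are mostly red in both tissues, with both KI arrays above both WT arrays for 38 genes in each.

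The counts depended on single arrays, as 2 arrays a group allow little else. Leaving out 1 muscle array reduced the 19 calls in muscle to 6 without KI 94, 4 without KI 97, 3 without WT 95 and 7 without WT 96. In cerebellum the 14 calls fell to 5 without KI 94, 9 without KI 97, 4 without WT 95 and 4 without WT 96. In these fits the lone array of a group is taken to vary like the other groups. Usp18 was called in muscle, and Oasl2, Usp18, Ifitm3 and Lgals3bp in cerebellum, whichever array was left out. In muscle, Rnf213 lost its call without WT 95; Oasl2 without WT 96 or KI 97; and Irf7, Ifih1, Ifitm3, Parp12 and Lgals9 with any muscle array left out. Of the other muscle calls, Ddx58, Ifit1, Ifit3, Trim30a and Sp100 held without WT 96, Eif2ak2, Ifit2 and Rtp4 without KI 94, Dtx3l and Rsad2 without KI 97, and Oas2 without WT 95, and each was lost with any other muscle array out. In cerebellum, Ifit1 lost its call without WT 95 or WT 96, Ddx58, Trim30a, Ifi27 and Rtp4 without any array but KI 97, and Irf9, Eif2ak2, Ifit3, Rnf213 and Lgals9 with any cerebellum array out. The fit shares 1 estimate of spread over all arrays, so Parp12, Rsad2 and Sp100 in muscle were also lost with any cerebellum array out, Ifih1 with a WT cerebellum array out, and Rnf213 in cerebellum with a WT muscle array out. Among the calls lost with an array of the same tissue out, the adjusted p ran from 0.0501 to 0.191 in muscle and from 0.0596 to 0.409 in cerebellum. With the muscle arrays fitted alone, 10 of the set were called in muscle.

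The transcription factors of the pathway did not move as a block. Irf7, which amplifies interferon production, read 6.77 and 6.67 in KI muscle against 5.53 and 5.37 in WT muscle. The groups were well apart, a rise of 1.27 ± 0.20 (SE) on the log2 scale or 2.41-fold (adjusted p = 0.0137). In cerebellum it read 6.10 and 5.70 in KI against 4.52 and 5.12 in WT, also without overlap, but the 1.08 ± 0.20 difference missed the threshold (adjusted p = 0.133). Irf9, the DNA-binding part of ISGF3, passed in cerebellum and not in muscle. It rose 1.91-fold in cerebellum (log2 0.93 ± 0.12, adjusted p = 0.0160), from 5.89 and 5.81 in WT to 6.77 and 6.80 in KI. In muscle it differed by 0.45 ± 0.12 (adjusted p = 0.0762). The muscle minus cerebellum difference in the limma fit passed for neither gene. It was 0.19 ± 0.28 for Irf7 (adjusted p = 0.783) and -0.49 ± 0.17 for Irf9 (adjusted p = 0.269).

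Stat2, the partner of Irf9 in that complex, read 7.66 and 7.55 in KI cerebellum against 7.65 and 7.69 in WT cerebellum. The groups overlapped, and at -0.06 ± 0.11 it was the only one of the 43 genes with a negative difference in cerebellum. In muscle its difference was 0.47 ± 0.11, just short of the threshold (adjusted p = 0.0505). Irf1, a factor induced by interferons and strongly by interferon gamma, read 5.14 and 5.39 in KI cerebellum against 5.06 and 5.35 in WT cerebellum, with overlapping groups. Its differences of 0.06 ± 0.14 in cerebellum and 0.13 ± 0.14 in muscle did not pass (adjusted p = 0.9996 and 0.645), and the sign in cerebellum turned when WT 95 (-0.09) or KI 97 (-0.06) was left out.

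Of the sensors of foreign nucleic acid, Ddx58 and Eif2ak2 rose in both tissues. Ddx58 encodes RIG-I, a cytosolic RNA sensor, and read 6.98 and 6.75 in KI cerebellum against 5.50 and 5.65 in WT, a 2.44-fold rise (log2 1.29 ± 0.14, adjusted p = 0.00924). In muscle it read 7.17 and 7.15 in KI against 6.07 and 6.41 in WT, a 1.89-fold rise (0.92 ± 0.14, adjusted p = 0.0126). Both KI arrays were clear of both WT arrays in each tissue. Eif2ak2 encodes PKR, the kinase that halts translation on double-stranded RNA. It read 5.87 and 5.68 against 4.87 and 4.78 in cerebellum (0.95 ± 0.12, adjusted p = 0.0159) and 5.89 and 6.07 against 5.24 and 5.33 in muscle (0.70 ± 0.12, adjusted p = 0.0190). Again the KI and WT arrays did not overlap, and the WT cerebellum level was near background.

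Ifih1, the sensor MDA5, read 6.16 and 6.37 in KI muscle against 5.71 and 5.53 in WT muscle and rose 1.56-fold (0.64 ± 0.15, adjusted p = 0.0491). Its cerebellar difference of 0.75 ± 0.15 was as large but did not pass (adjusted p = 0.153). Dhx58, the regulator LGP2, was too low to test, at 5.32 and 4.95 in KI muscle and 4.13 and 4.65 in WT muscle. Zbp1, a sensor of Z-form nucleic acid, differed by 0.27 ± 0.13 in muscle and 0.15 ± 0.13 in cerebellum, neither past the test (adjusted p = 0.276 and 0.998).

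Within the oligoadenylate synthetase (OAS) family, which makes the signal that activates RNase L, Oasl2 stood well above its relatives. Oasl2 (probe set 10524621) is an OAS-like protein with ubiquitin-like domains. In cerebellum it read 7.89 and 7.25 in KI against 5.26 and 5.31 in WT, a 4.88-fold rise (2.29 ± 0.19, adjusted p = 0.00261). In muscle it read 6.97 and 7.002 in KI against 5.88 and 5.59 in WT, a 2.38-fold rise (1.25 ± 0.19, adjusted p = 0.0126). The KI arrays were far from the WT arrays in both. Oasl1 lies next to Oasl2 on chromosome 5 with no protein-coding gene between. It read 6.34 and 6.41 in KI muscle, inside the WT values of 6.69 and 6.17, and its differences of -0.06 ± 0.16 in muscle and 0.39 ± 0.16 in cerebellum did not pass (adjusted p = 0.888 and 0.898). Leaving out WT 95 turned the muscle sign to 0.20.

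Oas2, a synthetase, rose 1.69-fold in muscle (0.76 ± 0.14, adjusted p = 0.0218), from 5.69 and 5.38 in WT to 6.35 and 6.24 in KI. In cerebellum it differed by 0.70 ± 0.14 and did not pass (adjusted p = 0.153). Its neighbour Oas3 read 5.17 and 4.87 in KI muscle and 5.23 and 4.78 in WT muscle, groups that overlapped, for a difference of 0.01 ± 0.19 (adjusted p = 0.983). Its sign turned without KI 94 (-0.14) or WT 96 (-0.21). Oas1a read 5.16 and 5.23 in KI cerebellum, within the WT values of 4.86 and 5.34, and its sign turned without WT 95 (-0.15) in cerebellum and without WT 96 (-0.01) in muscle. The OAS genes are close relatives with several copies in the mouse, so their probe sets may take up related transcripts.

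The IFIT family, whose founder Ifit1 grips viral RNA caps, held the largest rise of the set in each tissue, that of Ifit1. Ifit1 (probe set 10462623) read 7.42 and 6.58 in KI cerebellum against 4.62 and 4.40 in WT cerebellum. That is a 5.60-fold rise (2.49 ± 0.25, adjusted p = 0.00728), the largest difference of the 43 genes in cerebellum, measured against a WT level at background. In muscle it read 6.49 and 6.54 in KI against 4.72 and 5.19 in WT, a 2.95-fold rise (1.56 ± 0.25, adjusted p = 0.0147) and the largest there too. The KI cerebellum arrays were farther apart than the WT arrays of either tissue, and both still lay well above the WT values.

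Ifit3 was already well expressed in WT cerebellum, so its fold there rests less on background. It rose from 6.44 and 6.41 in WT cerebellum to 8.58 and 8.13 in KI cerebellum, 3.82-fold (1.93 ± 0.24, adjusted p = 0.0159). In muscle the WT arrays read 5.76 and 6.57 and the KI arrays 7.67 and 7.45, a 2.64-fold rise (1.40 ± 0.24, adjusted p = 0.0191); the WT muscle arrays were far apart from each other but below both KI arrays. Ifit2, its neighbour on chromosome 19, read 5.37 and 5.62 in KI muscle against 4.64 and 4.70 in WT muscle and rose 1.77-fold (0.82 ± 0.13, adjusted p = 0.0161). In cerebellum it was too low to test, at 5.17 and 4.87 in KI and 4.66 and 4.72 in WT.

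Of the ISG15 system, which attaches a ubiquitin-like tag to proteins, Usp18 and Herc6 were measured. Usp18 (probe set 10541307), the protease that removes the tag and restrains the interferon receptor, read 7.20 and 6.99 in KI cerebellum against 5.01 and 4.83 in WT, a 4.52-fold rise (2.18 ± 0.14, adjusted p = 0.000639). In muscle it read 6.87 and 6.85 in KI against 5.92 and 5.58 in WT, a 2.16-fold rise (1.11 ± 0.14, adjusted p = 0.00628), which had the lowest adjusted p of the set in muscle. KI replicates lay close together in both tissues. Herc6, the mouse ligase for the tag, differed by 0.60 ± 0.15 in muscle and 0.83 ± 0.15 in cerebellum and passed in neither (adjusted p = 0.0651 and 0.118).

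**Figure D2:**
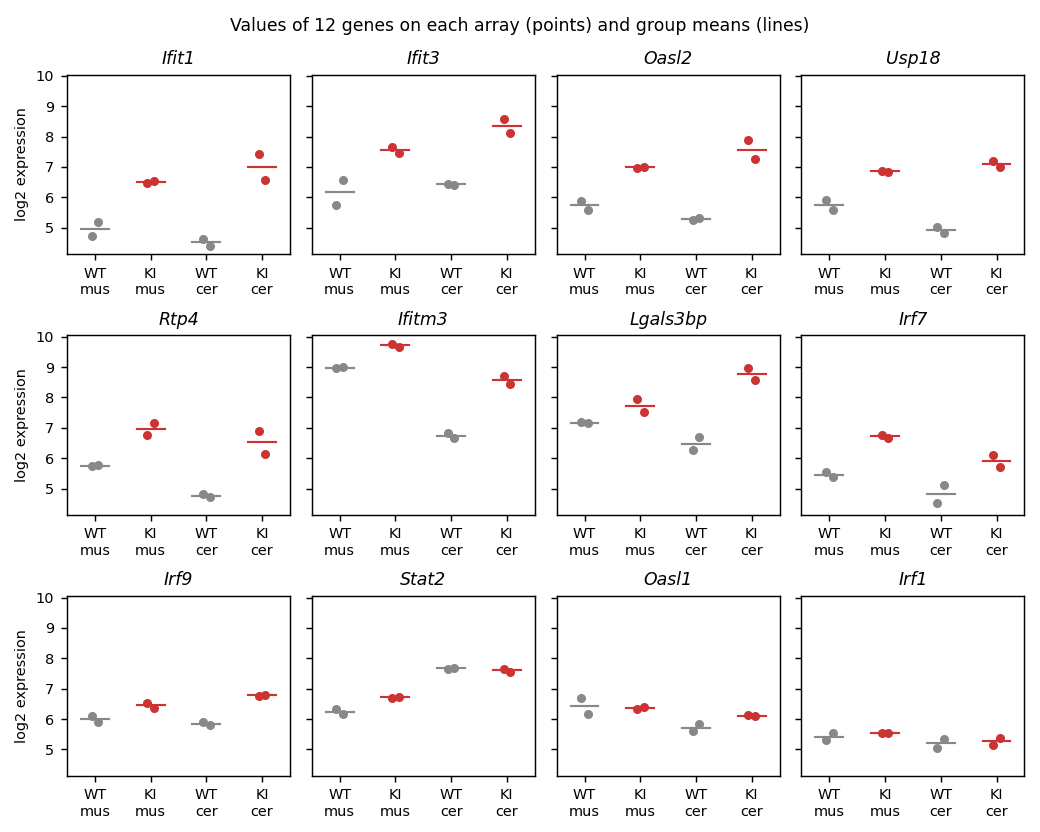
Log2 expression (vertical axis) of 12 genes on every array, as points, in WT (grey) and KI (red) muscle and cerebellum, with lines at the group means. Ifit1, Oasl2, Usp18 and Rtp4 are apart between WT and KI in both tissues, Lgals3bp is apart by 2.29 in cerebellum and 0.56 in muscle, and Irf1 overlaps between genotypes in cerebellum.

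Among the proteins that block virus entry or release, Ifitm3 rose in both tissues and its neighbours in the same cluster on chromosome 7 did not pass. Ifitm3 (probe set 10569017) stops viral fusion at endosomes. It read 8.72 and 8.45 in KI cerebellum against 6.83 and 6.66 in WT, a 3.59-fold rise (1.84 ± 0.13, adjusted p = 0.000639). In muscle, where WT arrays already read 8.98 and 8.99, the KI arrays read 9.78 and 9.66, a 1.66-fold rise (0.73 ± 0.13, adjusted p = 0.0188). All KI values were above all WT values of their tissue.

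Ifitm2 differed by 0.32 ± 0.14 in muscle and 0.36 ± 0.14 in cerebellum (adjusted p = 0.238 and 0.845), and its 3 probe sets gave like values, from 0.25 to 0.37 in muscle and from 0.36 to 0.42 in cerebellum. Ifitm1 differed by -0.19 ± 0.16 and 0.21 ± 0.16 (adjusted p = 0.542 and 0.998), and the muscle sign turned without KI 97 (0.05). A second Ifitm1 probe set had the opposite sign in muscle, at 0.04, and read 0.36 in cerebellum. Bst2, tetherin, which holds budding virions on the cell surface, differed by 0.39 ± 0.16 and 0.33 ± 0.16 (adjusted p = 0.218 and 0.976). The IFITM genes are near copies of each other, and their probe sets may share signal.

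Trim30a, a mouse TRIM-family ubiquitin ligase, read 6.66 and 6.23 in KI cerebellum against 4.76 and 5.02 in WT, a 2.94-fold rise (1.55 ± 0.19, adjusted p = 0.0159). The muscle values were 6.86 and 7.03 against 5.72 and 6.18, a 1.997-fold rise (1.00 ± 0.19, adjusted p = 0.0261). The groups were apart in both tissues, though Trim30a has near-identical relatives that its probes may not separate. Trim25, the ligase that acts on RIG-I, differed by 0.57 ± 0.15 in muscle (adjusted p = 0.0697) and was too low to test in cerebellum. Trim21, a cytosolic antibody receptor, differed by 0.32 ± 0.15 and 0.29 ± 0.15 and passed in neither tissue (adjusted p = 0.261 and 0.990).

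The ADP-ribosyltransferases and their partner ligases had positive differences in both tissues for all 5 genes, 3 of them called in muscle and 1 in cerebellum. Rnf213, a giant ubiquitin ligase, read 7.61 and 7.80 in KI muscle against 6.47 and 6.73 in WT, a 2.14-fold rise (1.10 ± 0.14, adjusted p = 0.00691). In cerebellum it read 6.81 and 6.81 in KI against 5.69 and 6.01 in WT, a 1.95-fold rise (0.96 ± 0.14, adjusted p = 0.0401). A second Rnf213 probe set gave smaller differences, 0.50 in muscle and 0.68 in cerebellum.

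Dtx3l, a ubiquitin ligase that works with Parp9, rose 1.67-fold in muscle (0.74 ± 0.12, adjusted p = 0.0133), from 6.14 and 6.18 to 6.97 and 6.83. Parp12, a mono-ADP-ribosyltransferase, rose 1.44-fold there (0.53 ± 0.11, adjusted p = 0.0375), from 6.62 and 6.76 to 7.15 and 7.28. Both had KI arrays above WT arrays in cerebellum as well, with differences of 0.46 ± 0.12 and 0.60 ± 0.11 that did not pass (adjusted p = 0.404 and 0.135). Parp9 and Parp14, which flank Dtx3l on chromosome 16, differed by 0.39 ± 0.14 and 0.48 ± 0.16 in muscle and by 0.49 ± 0.14 and 0.59 ± 0.16 in cerebellum, with no call.

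Rsad2, or viperin, which makes a chain-terminating nucleotide, read 6.70 and 6.06 in KI muscle against 5.62 and 5.37 in WT, a 1.84-fold rise (0.88 ± 0.20, adjusted p = 0.0470). In cerebellum its difference of 0.69 ± 0.20 did not pass (adjusted p = 0.551). Cmpk2, the mitochondrial nucleotide kinase encoded beside it on chromosome 12, differed by 0.60 ± 0.15 in muscle and 0.25 ± 0.15 in cerebellum (adjusted p = 0.0612 and 0.998). Isg20, an exonuclease, differed by 0.13 ± 0.11 and 0.34 ± 0.11 (adjusted p = 0.532 and 0.716).

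The remaining genes included the largest difference in shift between the tissues among the members, that of Lgals3bp, though the test of that difference did not pass. Lgals3bp (probe set 10393573), a secreted glycoprotein that binds galectin 3, read 8.97 and 8.57 in KI cerebellum against 6.26 and 6.69 in WT, a 4.91-fold rise (2.29 ± 0.20, adjusted p = 0.00263). Muscle values were 7.95 and 7.51 in KI against 7.19 and 7.14 in WT; the arrays did not overlap, and the difference of 0.56 ± 0.20 did not pass (adjusted p = 0.156). Ifi27, a small membrane protein, rose 2.60-fold in cerebellum (1.38 ± 0.14, adjusted p = 0.00728), from 6.23 and 6.17 to 7.72 and 7.43. Its muscle difference of 0.57 ± 0.14 missed the threshold (adjusted p = 0.0666).

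Rtp4, a receptor transporter protein, read 6.91 and 6.15 in KI cerebellum against 4.81 and 4.72 in WT, a 3.40-fold rise (1.76 ± 0.22, adjusted p = 0.0159) from a background level. On the muscle arrays it read 6.78 and 7.15 against 5.75 and 5.76, a 2.31-fold rise (1.21 ± 0.22, adjusted p = 0.0215). The KI arrays of each tissue differed from each other by more than the WT arrays did, and all were above WT. Lgals9, galectin 9, rose 1.74-fold in cerebellum (0.80 ± 0.11, adjusted p = 0.0235), from 5.91 and 5.78 to 6.63 and 6.67. It rose 1.58-fold in muscle (0.66 ± 0.11, adjusted p = 0.0161), from 7.02 and 6.91 to 7.57 and 7.68. Its shifts were thus close to equal in the 2 tissues, with an interval of the difference between them from -0.48 to 0.21.

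Sp100, a nuclear body protein, read 6.97 and 7.08 in KI muscle against 5.74 and 6.44 in WT, a 1.91-fold rise (0.93 ± 0.20, adjusted p = 0.0387). Its 0.84 ± 0.20 difference in cerebellum did not pass (adjusted p = 0.344). Ifi35, Xaf1 and Samd9l had differences of 0.57, 0.38 and 0.67 in muscle and 0.52, 0.59 and 0.90 in cerebellum with no call, and Samd9l was not tested in cerebellum. Epsti1 was at background in both tissues, at 4.98 and 4.95 in KI muscle and 4.79 and 4.97 in WT muscle, where the arrays overlapped.

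Of the 22 genes called in either tissue, 11 were called in both: Ddx58, Eif2ak2, Ifit1, Ifit3, Ifitm3, Lgals9, Oasl2, Rnf213, Rtp4, Trim30a and Usp18. They are 57.9% of the muscle calls and 78.6% of the cerebellum calls of the set. Over all genes, 16 were called higher in both tissues, which is 4.31% of the 371 called higher in muscle and 80.0% of the 20 called higher in cerebellum. Called in muscle and not in cerebellum were Dtx3l, Ifih1, Ifit2, Irf7, Oas2, Parp12, Rsad2 and Sp100, and the reverse held for Ifi27, Irf9 and Lgals3bp. These lists do not show a difference between tissues, which was tested on its own. Over the 43 genes the muscle and cerebellum differences had a Spearman correlation of 0.73 and a Pearson correlation of 0.735, and over all genes a Spearman correlation of -0.09. Both are descriptions across genes read on the same arrays; the tissues share no array, but the numbers on the arrays are the same.

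The test of the difference itself, muscle effect minus cerebellum effect in the same limma fit, called 0 of 41 genes at an adjusted p under 0.05. Of all 14708 genes tested, 0.102% were called higher in muscle by this difference and 0.0408% lower, 0.143% in all. An unadjusted p under 0.05 was found for 9 of the 41 and for 2033 of the 14708. The difference was closest to the threshold for Ifitm3 and Lgals3bp, both with a larger shift in cerebellum: -1.11 ± 0.18 (95% interval -1.51 to -0.71) and -1.73 ± 0.28 (-2.36 to -1.10), each with an adjusted p of 0.0599. Usp18 followed at -1.07 ± 0.20 (adjusted p = 0.0915), then Ifi27 at -0.81 ± 0.20 (0.140) and Oasl2 at -1.04 ± 0.27 (0.157). Stat2 pointed the other way, at 0.53 ± 0.16 (adjusted p = 0.199). By sign, 26 of the 43 genes had the larger shift in cerebellum and 17 in muscle, with a median of -0.11. The calls depended on the settings: Lgals3bp was called without KI muscle 94 (adjusted p = 0.0488), and 2 genes were called under a stricter filter, after a repeated quantile normalization or with trended and robust variances.

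**Figure D3:**
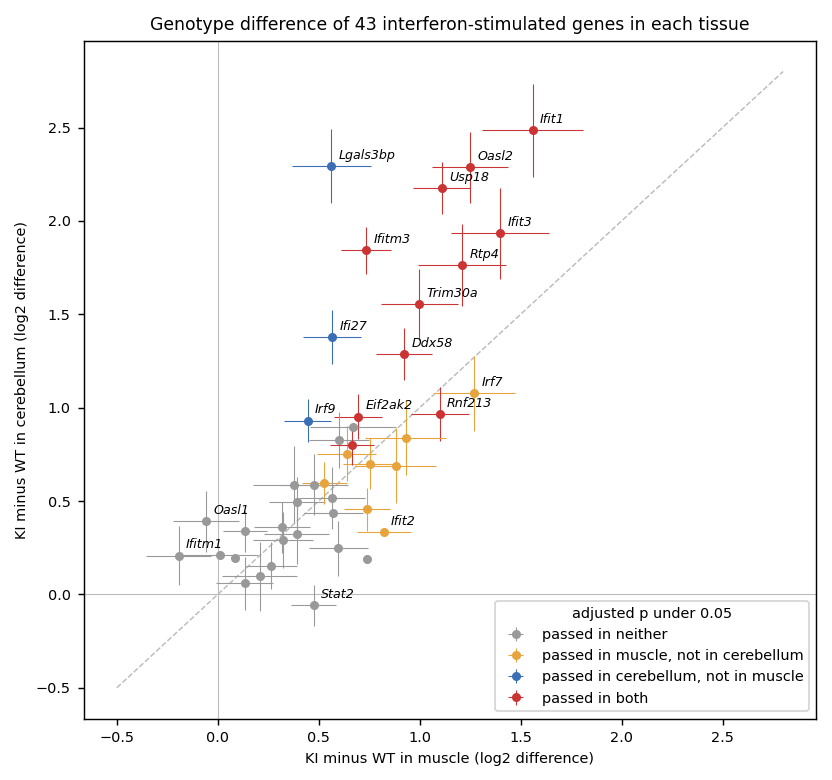
KI minus WT difference in log2 units of the 43 genes in muscle (horizontal axis) and in cerebellum (vertical axis), with error bars of 1 SE for tested genes, colours for the calls at an adjusted p under 0.05 and a dashed line of equal shift. Most genes lie in the upper right; Lgals3bp (0.56, 2.29) and Ifitm3 (0.73, 1.84) are far above the line and Stat2 (0.47, -0.06) is below it.

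The starting levels differed between the tissues. In WT mice, 29 of 41 tested genes were higher in muscle than in cerebellum and 2 were lower, where 31.4% of all 14708 tested genes were higher and 33.6% lower, 65.0% in all. The median log2 difference was 0.66, against 0.14 over all genes. Ifitm3 was 4.73-fold higher in WT muscle (2.24 ± 0.13, adjusted p = 2.76e-07) and Ifitm2 3.68-fold higher (1.88 ± 0.14). Stat2 was 2.69-fold lower in muscle (-1.43 ± 0.11, adjusted p = 2.45e-06) and Cmpk2 1.70-fold lower (-0.77 ± 0.15, adjusted p = 0.00126). Ifit3 started at like levels, with a difference of -0.26 ± 0.24 (adjusted p = 0.363) and an interval from -0.81 to 0.29.

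Both KI arrays carried the shift in each tissue. The mean over the 43 genes lay 0.92 above the WT mean on KI cerebellum array 94 and 0.73 above it on 97, while the WT cerebellum arrays were 0.05 on either side. On the muscle arrays KI 94 and KI 97 lay 0.64 and 0.61 above, and the WT arrays 0.02 on either side. Array 94 read higher than 97 for 31 of 43 genes in cerebellum and for 23 of 43 in muscle.

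Over the 5 lists for the rest of the pathway and for NF-kB, 3 of 55 tested genes (5.45%) were called in muscle, 2 higher and 1 lower, against 3.55% of all tested genes. In cerebellum 0 of 52 were called by limma, against 0.205%, with 1 unadjusted p under 0.05. Of 21 interferon genes listed, 16 were measured and 5 were high enough to test, and limma called none in either tissue. Its unadjusted p was under 0.05 for 2 in muscle and 1 in cerebellum. Over all tested genes this held for 2822 of 13933 in muscle and 727 of 13641 in cerebellum. The medians were -0.16 in muscle and 0.04 in cerebellum. The smallest p belonged in muscle to Ifnl2 (-0.52 ± 0.16, adjusted p = 0.123) and Ifna14 (-0.34 ± 0.13, adjusted p = 0.187), and in cerebellum to Ifnz (0.26 ± 0.11, adjusted p = 0.914) and Ifnl2 (0.18 ± 0.16, adjusted p = 0.998). Ifnb1, interferon beta, read between 3.91 and 4.25 on all 8 arrays, below the 40th percentile of each. A low transcript level cannot be seen at such a signal, and the interferon alpha genes are near copies that probes may not tell apart.

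Among 12 measured receptor, kinase and STAT genes, Ifnar2, the high-affinity receptor subunit, rose 0.54 ± 0.12 in muscle (adjusted p = 0.0445), at 7.11 and 6.97 in KI against 6.45 and 6.54 in WT. That call was lost with any muscle array or either WT cerebellum array left out (adjusted p between 0.0854 and 0.204). None passed in cerebellum, where limma gave no unadjusted p under 0.05. List medians were 0.11 and 0.02. Of 14 measured induction genes (adaptors, kinases and DNA sensors), Irf5, a factor that drives interferon and cytokine genes in myeloid cells, fell in muscle by 0.93 on the log2 scale (SE 0.15, adjusted p = 0.0170), from 6.95 and 7.23 to 6.03 and 6.29, and lost the call without KI 94 (0.0826) or WT 96 (0.0796). None passed in cerebellum, again with no unadjusted p under 0.05, and the list medians were 0.13 and 0.08.

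The 15 brakes and nucleases gave no call by limma in either tissue, with medians of 0.11 and 0.03. Unadjusted p was under 0.05 for 5 in muscle, as for 2822 of all 13933 tested genes. In cerebellum it was so for 0, and for 727 of all 13641. Closest in muscle were Samhd1, which breaks down deoxynucleotides (0.53 ± 0.14, adjusted p = 0.0774), and the phosphatase Ptpn11 (0.36 ± 0.10, adjusted p = 0.0920). In cerebellum they were the phosphatase Ptpn2 (-0.36 ± 0.19) and the inhibitor Socs1 (0.20 ± 0.13), both at an adjusted p of 0.998. Of 17 measured NF-kB targets, which many inflammatory signals raise without interferon, Birc3, an apoptosis inhibitor, rose 0.79 ± 0.16 in muscle (adjusted p = 0.0294), at 6.75 and 7.16 against 6.17 and 6.16, and lost the call without WT 95 (0.137), WT 96 (0.0951) or KI 97 (0.128). None of these targets passed in cerebellum or had an unadjusted p under 0.05 there; the medians were -0.03 and 0.15.

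**Figure D4:**
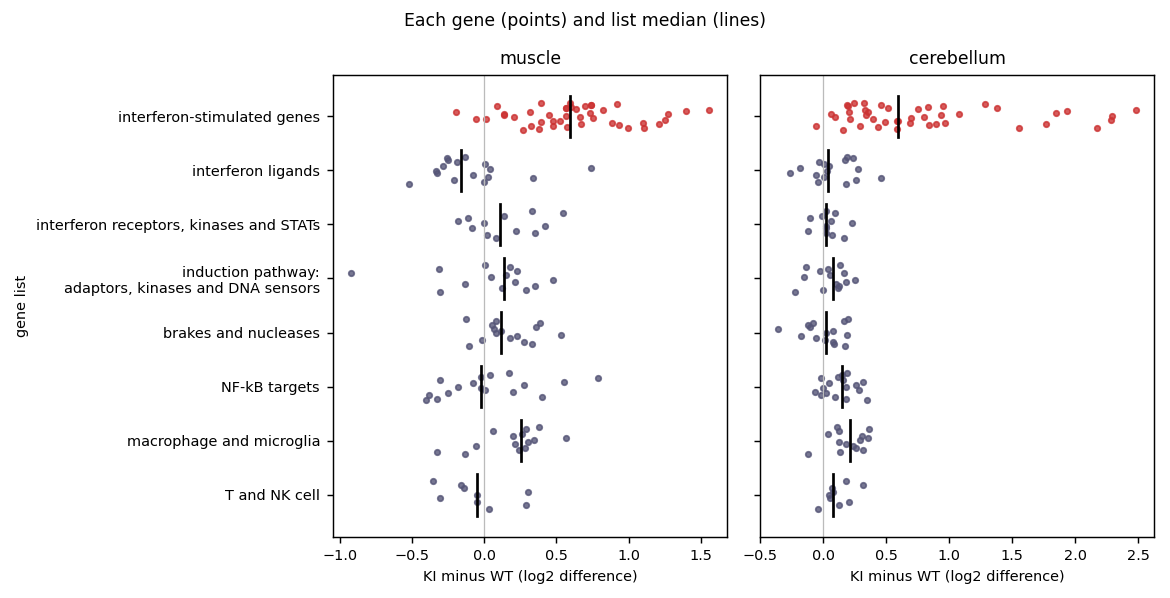
KI minus WT difference in log2 units (horizontal axis) of every measured gene (points) in the interferon-stimulated set and in the comparison lists (rows), in muscle (left) and cerebellum (right), with the list medians as lines. The median of the interferon-stimulated set is 0.60 in both tissues, and those of the pathway lists lie between -0.16 and 0.15.

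In bulk tissue, more cells of a type and more RNA per cell cannot be told apart, so the markers of other cells are given beside these results. Of 14 macrophage and microglia markers, 11 had positive differences in muscle and 13 in cerebellum. Limma called none of the 12 tested in each tissue, and the medians were 0.25 and 0.21. Unadjusted p was under 0.05 for 5 and 2. Over all tested genes it was so for 2822 of 13933 in muscle and 727 of 13641 in cerebellum. Their mean level was 5.85 to 6.03 in KI muscle against 5.72 to 5.78 in WT muscle, and 5.82 to 5.83 in KI cerebellum against 5.62 to 5.65 in WT cerebellum, so KI was above WT in both. T and NK cell markers were near background, and their mean levels overlapped between genotypes in both tissues (4.29 to 4.31 against 4.24 to 4.46 in muscle, 4.13 to 4.31 against 4.01 to 4.20 in cerebellum). The 5 plasmacytoid dendritic cell markers, which include Bst2 of the set itself, averaged 6.05 to 6.10 in KI muscle against 5.93 to 5.95 in WT, and 6.11 to 6.21 in KI cerebellum against 6.06 in WT, with no call. These markers did not move together, and 3 of the 5 had positive differences in each tissue. By group mean, Siglech (4.85 against 5.01) and Ccr9 (3.84 against 3.96) were lower in KI muscle than in WT muscle. Tcf4 (9.64 against 9.73) and Ccr9 (3.74 against 3.82) were lower in KI cerebellum.

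Other markers also moved with genotype. All 8 muscle markers were lower in KI muscle, where 49% of all genes had a positive difference. Their mean was 11.39 to 11.50 against 11.96 to 12.06 in WT. Limma called 3 of them (Casq1, Actn3 and Pvalb), where 0.890% of all tested genes were called lower. These calls were lost with any muscle array left out or with the muscle arrays fitted alone. Actn3 and Pvalb also lost theirs with no filter or with quantile normalization again. All 8 cerebellar markers were lower in KI cerebellum, with a mean of 10.39 to 10.57 against 10.79 to 10.90. Limma called none of them, with an unadjusted p under 0.05 for 3, and for 727 of all 13641 tested genes. B cell markers averaged 4.59 to 4.63 in KI muscle against 4.56 in WT muscle, both near background, and overlapped in cerebellum. Neutrophil, endothelial, choroid plexus and blood markers overlapped between genotypes in both tissues. The choroid plexus marker Ttr read 8.13 on KI muscle array 94, 5.77 on KI muscle array 97, and 6.07 and 6.08 in WT muscle. Astrocyte markers overlapped in cerebellum and were lower in KI muscle (5.69 to 5.72 against 5.85 to 5.86), with no call. The part of any of these in the higher interferon-stimulated genes was not tested.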

How the data were processed

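Biotin-labelled total RNA was read on 8 Mouse Gene 1.0 ST arrays, per the labels. The authors deposited log2 values of 35556 probe sets; the submitters' processing notes name GCOS and RMA, with versions not given in the sources used here. RMA corrects background and equalises the arrays' distributions, which compresses changes near background. Of 23410 probe sets with a platform gene symbol, 21789 carried 1 symbol and were used; 1621 carried several and were not used.

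The brightest probe set of each gene was fitted with limma 3.58.1 in R 4.3.3, with 4 group means in 1 fit (4 residual and 5.3 prior degrees of freedom), Benjamini-Hochberg adjustment and a threshold of 0.05. Genes were tested in a tissue where at least 2 of 4 arrays reached the 40th percentile of all probe sets. Errors of differences are SE of the fit. The members and lists were chosen with earlier results of these data known. Every member may be named; per-array values are given for called members and for the 3 largest and 3 smallest differences in each tissue. From each pathway list, called genes are named, or else the 2 with the smallest p in each tissue; marker lists are given by counts and mean levels. Alternatives were no filter, a 60th percentile filter, quantile normalization or median centring, means over probe sets, all probe sets, trended and robust variances, the tissue alone, the array number as a block, a threshold of 0.1, and each array left out. Promoter windows are RefSeq's, searched for exact letters.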

Additional observations from a re-analysis of the deposited data

How the results depend on the processing

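Over the members' alternatives, 1434 values kept their side of the threshold and direction, 126 lost the call, 31 gained it and 8 reversed. The reversed values all came with 1 array left out, over which Oas3 ranged from -0.21 to 0.24, Oasl1 from -0.32 to 0.20, Oas1a from -0.0084 to 0.43 and Ifitm1 from -0.44 to 0.049 in muscle, and Irf1 from -0.085 to 0.21 and Oas1a from -0.15 to 0.34 in cerebellum; none of these was called. The others among them were Oas3 at -0.14 without KI 94 in muscle and Irf1 at -0.06 without KI 97 in cerebellum. With each array left out, called members ranged from 3 to 17 in muscle, from 4 to 14 in cerebellum and from 0 to 1 for the difference between tissues. All called genes ranged from 105 to 385 in muscle, from 4 to 29 in cerebellum and from 0 to 23 for the difference. The members' median ranged from 0.56 to 0.61 in muscle, from 0.53 to 0.72 in cerebellum, from -0.14 to -0.0044 for the difference and from 0.55 to 0.74 for WT muscle against WT cerebellum. In muscle, all called genes numbered 246 with no filter, 155 with the tissue alone (10 members) and 995 at an adjusted p under 0.1, and median centring moved the members' median to 0.63. Ifih1, Parp12, Rsad2 and Sp100 lost their muscle calls with no filter, and Rnf213 and Lgals9 their cerebellum calls. Quantile normalization again ended the muscle calls of Ifih1, Parp12 and Sp100, and testing all probe sets those of Ifih1 and Rsad2. With all probe sets tested, 45 probe sets were called in cerebellum, a count of probe sets and not of genes. All called genes there numbered 18 with no filter. For the difference they numbered 3 with no filter, 38 with the stricter filter, 63 with trended and robust variances and 108 at an adjusted p under 0.1; 2 members were called with the stricter filter, with quantile normalization again and with trended and robust variances, and 3 at an adjusted p under 0.1. By construction the filters change how many genes are tested and the tissue-alone and left-out settings how many arrays are fitted; the cause was not tested for the others. The sources do not say whether arrays with the same number come from the same mouse. Deviations of same-numbered arrays from their group means correlated across the tissues at 0.054 in KI and -0.099 in WT. With 2 arrays a group and different tissues, these values cannot decide whether the arrays are paired. With the number as a replicate block, 20 members were called in muscle (Stat2 in addition, adjusted p = 0.0499), 14 in cerebellum, 1 for the difference (Lgals3bp, adjusted p = 0.0416) and 30 between WT tissues, and all called genes numbered 494, 27, 14 and 9241. B2m lost its cerebellum call (adjusted p = 0.0511). With signal near background in WT cerebellum, 17 members had no WT array there at the 40th percentile, which limits their folds.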

Other observations

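The 20 genes called higher in KI cerebellum included 6 outside the set, named here after their values were seen. B2m, the light chain of MHC class I, rose by 0.89 ± 0.14 (SE, log2, adjusted p = 0.0442) in cerebellum and by 0.62 ± 0.14 (adjusted p = 0.0409) in muscle. The interferon-inducible GTPases Gbp3 and Irgm1 rose by 1.21 ± 0.13 and 1.16 ± 0.12 in cerebellum (adjusted p = 0.00925 and 0.00728) and by 0.76 ± 0.13 and 0.71 ± 0.12 in muscle (adjusted p = 0.0199 and 0.0170). The other 3 are not known as interferon targets. Gdpd3, a lysophospholipase D, rose by 1.35 ± 0.19 in cerebellum (adjusted p = 0.0294) and by 2.97 ± 0.19 in muscle (adjusted p = 0.000861). Polr2a, the large subunit of RNA polymerase II, rose by 0.82 ± 0.12 and 1.23 ± 0.12 (adjusted p = 0.0282 and 0.00158). The potassium channel gene Kcnb2 rose by 0.79 ± 0.11 in cerebellum (adjusted p = 0.0317) and was not tested in muscle. In cerebellum, B2m, Kcnb2 and Polr2a lost the call with any cerebellum array left out, Gdpd3 without any of them but KI 94, and Gbp3 and Irgm1 without any but KI 97 (adjusted p from 0.0692 to 0.483). In muscle, B2m and Gbp3 lost it with any muscle array left out, Irgm1 without any but KI 94, and Gdpd3 and Polr2a with none. Of the 16 genes called higher in both tissues, 11 were members of the set, which was chosen with earlier results of these data known. All p-values are limma's.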
